A study of Mus musculus with 2 samples.

Results

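CXCR3 is a chemokine receptor of activated T cells and NK cells, and Cxcl9 and Cxcl10 encode 2 of its ligands, small secreted proteins that attract cells bearing the receptor. Cxcl9 is known mainly as a target of interferon gamma, while Cxcl10 also responds to type I interferons and to NF-kB. In tumours, macrophages and dendritic cells are known sources of both ligands, and T cells and NK cells are known sources of interferon gamma. The 3 genes Cxcl9, Cxcl10 and Cxcr3 were read out of 24510 genes of a single-cell table, across classes of immune cells gated on other genes. Cxcl11, which encodes a further ligand, stood only on a list of related genes used below, and its values are not reported here.

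The cells were sorted for the leukocyte antigen CD45 from subcutaneous tumours of B16F10, a transplantable pigmented mouse melanoma line. Tumours grew in female C57BL/6 mice from wildtype cells, from Tyr knockout cells or from Oca2 knockout cells, with 3 mice for each, and the labels name no other allele in the hosts. Tyr encodes tyrosinase, which starts the making of melanin, and Oca2 encodes a melanosomal transport protein. Cells of each tumour genotype were marked with their own sample tag before all were captured together in 1 library. Tags 8, 9 and 10 were found. Which tag marked which genotype is not given in the sources used here, so the tags are treated as 3 samples of unnamed genotype, and knockout tumours are not compared with wildtype tumours.

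Of 14899 cells, 13090 carried a single tag, and 10491 of these were kept because 200 or more genes were found in them and mitochondrial molecules made up no more than 25%. They were 3336, 3486 and 3669 cells of tags 8, 9 and 10, with medians of 3224.5, 3670.0 and 3565 molecules per cell. The total was 20020951, 20814133 and 22908828 molecules. Ptprc, which encodes CD45, had a molecule in 77.8% to 81.8% of the cells of a tag. A cell entered a class when its own marker sum reached a set minimum and each competing marker sum was at most 1 molecule. The gates placed 6270 cells (59.8%) in 15 classes, and left 4197 cells in no gate and 24 in more than 1. The level of a gene is the sum of its molecules over a class and tag divided by all molecules of that class and tag, on the usual CPM scale. Intervals are exact Poisson or Clopper-Pearson 95% intervals and cover counting error only. No p-values are given, because cells are not replicates and the tags are not replicates of a condition.

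One gate held cells that went against its name. The CCR7 dendritic cell gate, on Fscn1, Ccl22 and Cacnb3, took in 21 of 397 cells with 10 or more molecules of the melanoma markers Mlana, Pmel, Dct and Tyrp1. These 21 cells had a median of 68333 molecules, and Ccr7 was found in 5 of them and Ptprc in 9. Among the other 376 cells of the gate, with a median of 5709.5 molecules, Ccr7 was found in 310 (82.4%) and Cd74, the invariant chain of MHC class II, in 365. Such pigment-rich cells were 2 of 305 conventional CD4 T cells, 1 of 121 type 1 conventional dendritic cells (cDC1) and at most 5 in any other class. Levels and ratios of the 3 genes that rest on the CCR7 gate, on the CD4 gate or on cDC1 are given with and without them. So are the calls of list genes, for cDC1 as counts.

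Both ligand genes lie on the minus strand of mouse chromosome 5 (GRCm38, GENCODE vM21), Cxcl9 at 92321347 to 92328079 and Cxcl10 at 92346638 to 92348889, with 18558 bases between them. Each has 4 exons in its first listed transcript. Cxcr3 lies on the minus strand of chromosome X at 101731535 to 101734269 and has 2 exons. The identifiers are ENSMUSG00000029417.9 for Cxcl9, ENSMUSG00000034855.13 for Cxcl10 and ENSMUSG00000050232.6 for Cxcr3. The 250 bases directly upstream of the ligands' first exons are shown because the data below bear on interferon-induced genes, 5′ to 3′ on the gene's strand, from RefSeq's GRCm38.p6. Cxcl9 is chr5:92328080-92328329 and Cxcl10 is chr5:92348890-92349139. Capitals mark motif matches.

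Cxcl9: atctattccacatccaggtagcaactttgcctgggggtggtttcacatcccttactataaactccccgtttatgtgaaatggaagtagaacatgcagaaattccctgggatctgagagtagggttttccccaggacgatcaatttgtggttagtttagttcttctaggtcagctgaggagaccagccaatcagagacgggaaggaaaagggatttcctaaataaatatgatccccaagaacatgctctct

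Cxcl10: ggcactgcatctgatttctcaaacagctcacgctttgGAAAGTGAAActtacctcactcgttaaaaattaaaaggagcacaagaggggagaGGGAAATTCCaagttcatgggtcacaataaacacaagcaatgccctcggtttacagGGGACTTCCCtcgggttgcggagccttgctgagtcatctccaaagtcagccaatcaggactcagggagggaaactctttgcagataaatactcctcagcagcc

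Searched on both strands were the interferon-stimulated response element (ISRE) as GAAANNGAAA, the gamma-activated site (GAS) as TTCNNNGAA, and the NF-kB motif. The NF-kB motif was used by name, and its letters are not given here. The Cxcl10 window holds 1 ISRE match, 213 to 204 bases before the start, and 2 NF-kB matches, at 159 to 150 and at 103 to 94 bases before it. None of these letters overlap. No match of the 3 searched patterns was found in the Cxcl9 window, which does not cover looser forms of these patterns. Of 32851 mouse promoter windows of the same length, 2.98% hold an ISRE match, 7.02% a GAS match and 3.90% an NF-kB match. A match is a run of letters, not a shown binding site.

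Among gated cells, monocytes and C1q macrophages held most molecules of both ligands, and T cells held most molecules of the receptor. Cxcl10 had 38969 molecules in the kept cells, Cxcl9 had 15514 and Cxcr3 had 1186. C1q macrophages, tumour macrophages gated on the complement genes C1qa, C1qb and C1qc, were 14.0% of the kept cells and held 28.6% of the Cxcl9 and 32.7% of the Cxcl10 molecules. Monocytes, gated on Ly6c2 and Chil3, were 8.05% of cells and held 14.9% and 17.7%. Of the Cxcr3 molecules, CD8 T cells held 22.9%, regulatory T cells 13.3% and conventional CD4 T cells 13.2%. Cells in no gate or in more than 1 held 41.7% of Cxcl9, 33.3% of Cxcl10 and 35.1% of Cxcr3, so the classes describe only part of each gene's molecules.

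**Figure D1:**
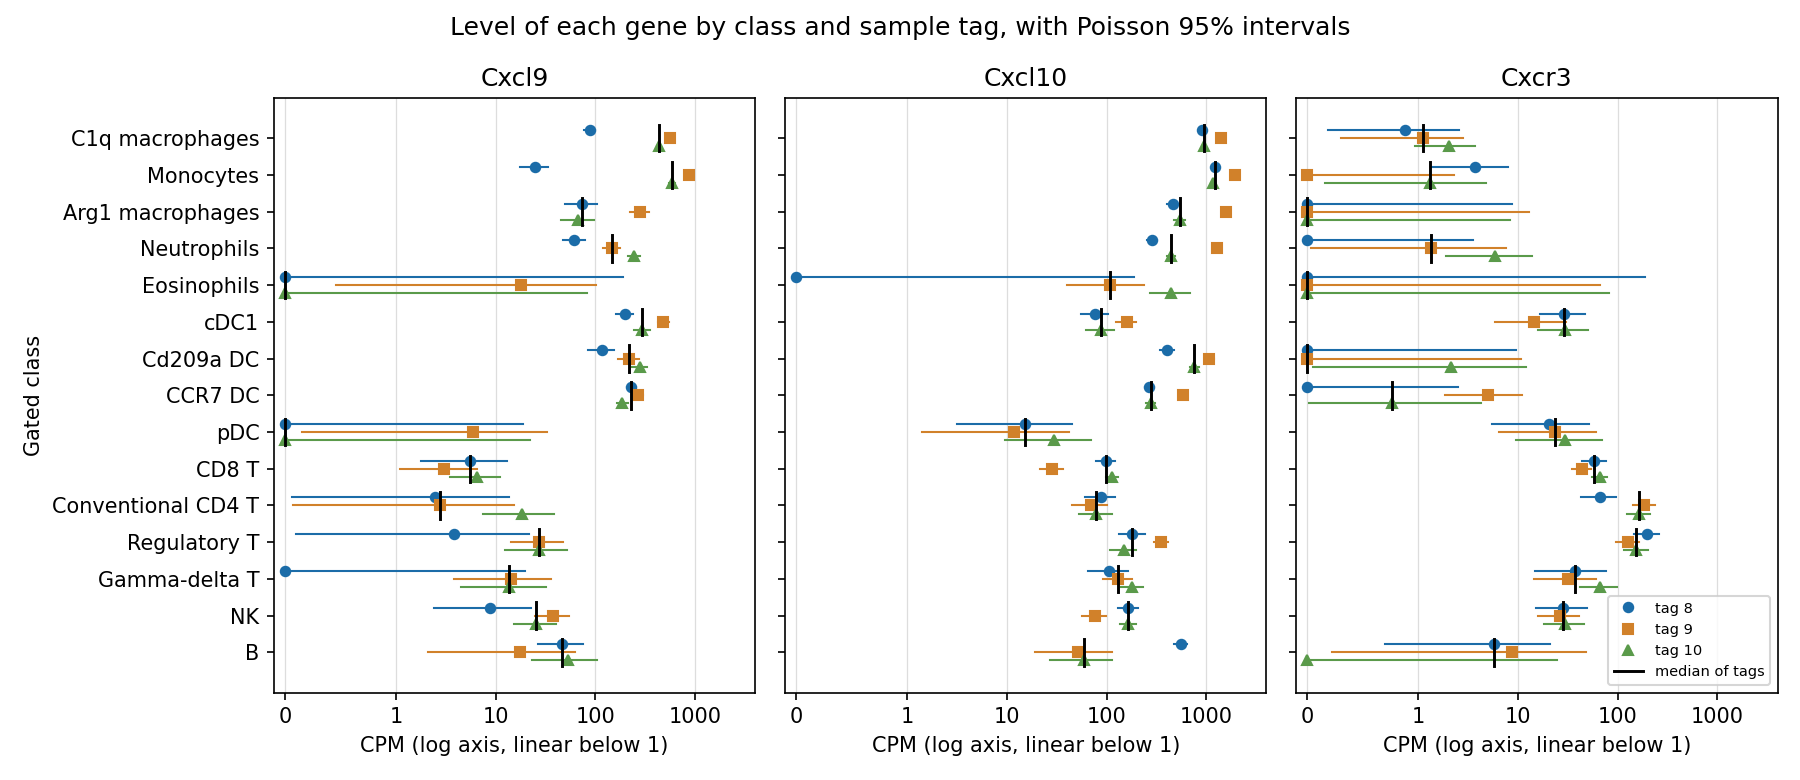
Level of Cxcl9, Cxcl10 and Cxcr3 (CPM, log axis that is linear below 1) in 15 gated classes, 1 point per sample tag with its Poisson 95% interval and a black line at the median of the tags. Monocytes and C1q macrophages have the highest median of both ligands. pDC and eosinophils have 0 to 18.0 CPM of Cxcl9, with eosinophil intervals that reach 82.5 to 190 CPM. Cxcr3 has 65.8 to 197 CPM in CD4 and regulatory T cells.

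Cxcl9 in monocytes was 24.5, 867 and 584 CPM in tags 8, 9 and 10. Tag 8 was low, with only 40 molecules in 282 cells against 1392 in 276 cells of tag 9. In C1q macrophages Cxcl9 was 87.3, 556 and 435 CPM, and tag 8 was again the lowest. The summed level of 12 genes known to respond to interferon gamma, among them Gbp2 and Irf1, was also lowest in tag 8. It was 603, 2366 and 1718 CPM in monocytes and 528, 1817 and 1082 CPM in C1q macrophages. So was that of 12 genes known to respond to type I interferons, with 1835, 2755 and 2836 CPM in monocytes. In C1q macrophages those 12 genes summed to 1625, 2544 and 1939 CPM. The monocyte markers Ly6c2 and Chil3 that define the gate summed to 1937, 2611 and 4056 CPM in monocytes, lowest in tag 8 too. The part of these differences in the Cxcl9 values was not tested.

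The dendritic cells came next for Cxcl9. In cDC1, the cross-presenting dendritic cells, it was 196, 480 and 294 CPM, and 126, 335 and 192 CPM without the cell with most molecules of each tag. Without the 1 pigment-rich cell of cDC1, which lay in tag 8, Cxcl9 was 230 CPM in that tag. In the CCR7 gate, which marks mature migratory dendritic cells, it was 229, 270 and 186 CPM, and without the pigment-rich cells 342, 388 and 264 CPM, a median above that of cDC1. A single cell held 194 of the 338 molecules of tag 8 there, and 98.6 CPM were left without it in the whole gate. Cd209a dendritic cells, a type 2 class, had 116, 216 and 279 CPM, but 1 cell held 39 of the 45 molecules of tag 8, and 15.8 CPM were left without it. Neutrophils had 61.0, 146 and 245 CPM, and without the 1 cell that held 71 of the 108 molecules of tag 9 that tag had 51.1 CPM. Arg1 macrophages, which express arginase 1 but little C1q, had 73.5, 278 and 67.6 CPM. In Arg1 macrophages 28 of 31, 65 of 80 and 19 of 30 molecules came from 1 cell of each tag, and without it 7.26, 54.6 and 25.2 CPM were left.

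In lymphocytes Cxcl9 stayed at 53.1 CPM or below in every tag, or at 76.1 CPM or below without the pigment-rich cells. CD8 T cells had 3.00 to 6.49 CPM, NK cells 8.80 to 37.2 CPM and B cells 17.4 to 53.1 CPM. Single cells held 22 of 27 and 14 of 18 molecules of NK cells in tags 9 and 10, and 15 of 16 molecules of B cells in tag 8. Without them 6.96, 5.74 and 3.01 CPM were left. Plasmacytoid dendritic cells (pDC) and eosinophils had 1 Cxcl9 molecule each, in 101 and 82 cells. The eosinophils held few molecules of any gene, and their Cxcl9 intervals reach 190, 100 and 82.5 CPM. Ordered by the median of the tags, the classes ran from monocytes over C1q macrophages, cDC1, CCR7 and Cd209a dendritic cells and neutrophils to Arg1 macrophages, and each neighbour's range overlapped the next. The only neighbours in the whole order whose ranges did not overlap were Arg1 macrophages and B cells. That gap rests on 1 pigment-rich B cell of tag 10. Without it B cells of that tag had 76.1 CPM from 8 molecules, above the lowest Arg1 value of 67.6 CPM.

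Cxcl10 was more evenly spread over tags in the leading classes. Monocytes had 1229.7, 1945 and 1164 CPM and C1q macrophages had 908.5, 1389.8 and 946 CPM. Tag 9 was the highest in both, and tag 8, far below the others for Cxcl9, stood close to tag 10 in both. Cd209a dendritic cells had 401, 1071 and 761 CPM, with 86 of the 156 molecules of tag 8 in 1 cell and 185 CPM without it. Arg1 macrophages had 467, 1591 and 539 CPM, and neutrophils 288, 1288 and 443 CPM. Each of these classes was highest in tag 9. The CCR7 gate had 268, 581 and 276 CPM, and 315, 829.9 and 389 CPM without the pigment-rich cells.

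cDC1 stood far down the order for Cxcl10, with 76.3, 159 and 87.1 CPM, among the levels of T cells. Tag 8 stood at 83.2 CPM without its pigment-rich cell. In tag 10, 1 cell held 30 of the 38 molecules of cDC1, and 19.3 CPM were left without it. Regulatory T cells had 182, 353 and 148 CPM, although 79 of the 155 molecules of tag 9 came from 1 cell. NK cells had 75.7 to 165 CPM, gamma-delta T cells 106 to 181 CPM, CD8 T cells 28.5 to 114 CPM and conventional CD4 T cells 69.2 to 87.7 CPM. B cells had 52.2 and 59.7 CPM in tags 9 and 10 but 555 CPM in tag 8, where 1 cell held 183 of 191 molecules and 24.1 CPM were left without it. Eosinophils had 26 molecules in 82 cells.

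Free RNA can put single molecules of an abundant transcript into any cell. In pDC, a class of similar depth with little of either ligand, 7 of 101 cells had a Cxcl10 molecule, at 11.8 to 29.8 CPM. By tag that was 5.41%, 6.06% and 9.68% of the pDC, with median depths of 5154, 5410.0 and 5481 molecules. In CD8 T cells the share was 17.7%, 12.8% and 18.2%, with median depths of 3922, 5858.5 and 4443 molecules. After thinning each cell to 1000 molecules the shares were 8.22%, 4.02% and 4.23% in CD8 T cells, 0%, 3.03% and 0% in pDC, and 33.2%, 39.6% and 35.3% in C1q macrophages. The pDC ranges of Cxcl10 lay below those of every class but eosinophils and CD8 T cells, whose lowest tags had 0 and 28.5 CPM.

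The balance of the ligands differed between dendritic classes. Cxcl9 was 72.0%, 75.1% and 77.1% of the molecules of both ligands in cDC1, which is a ratio of molecules within a class and not a comparison of protein. In Cd209a dendritic cells it was 22.4%, 16.8% and 26.8%, and in the CCR7 gate 46.0%, 31.7% and 40.3%, or 52.1%, 31.8% and 40.4% without the pigment-rich cells. The intervals of cDC1, with a lower bound of 64.1% in tag 8, lay above every value of the other classes shown. They cover the counting of molecules only, and 1 cell of each tag held 40 of 108, 72 of 229 and 48 of 128 Cxcl9 molecules of cDC1. In monocytes the share was 1.96%, 30.8% and 33.4% and in C1q macrophages 8.77%, 28.6% and 31.5%, with tag 8 far below the others in both. Neutrophils had 17.5%, 10.2% and 35.6%, and Arg1 macrophages 13.6%, 14.9% and 11.2%.

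**Figure D2:**
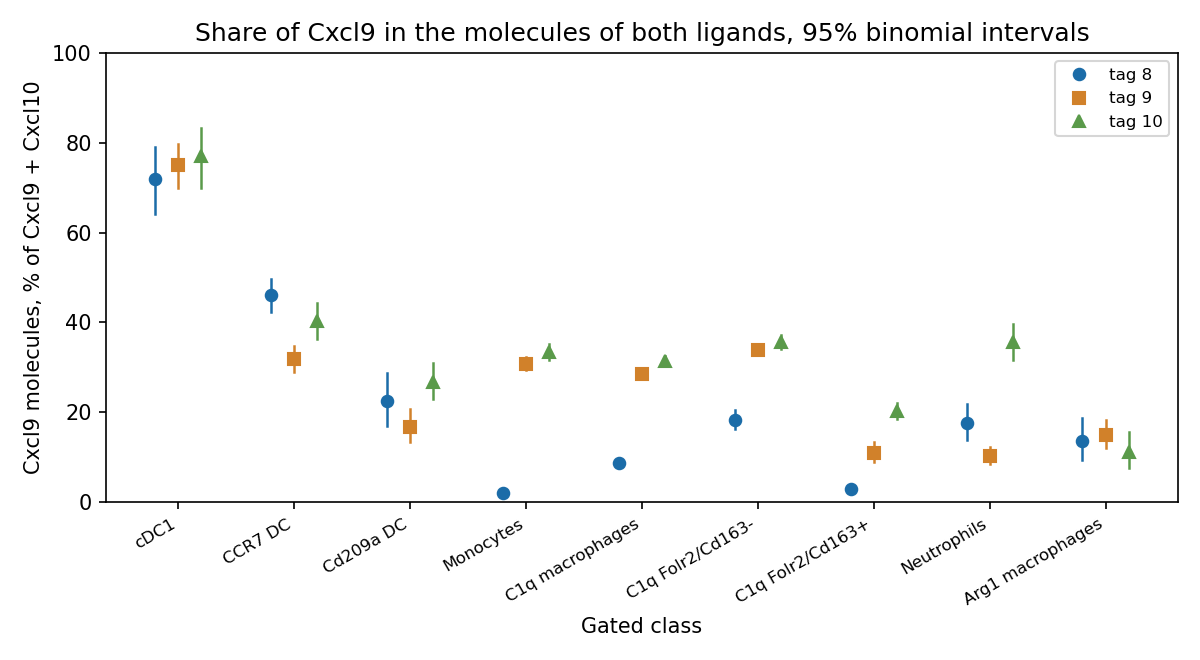
Cxcl9 molecules as a percentage of Cxcl9 plus Cxcl10 molecules in 9 gated classes, 1 point per sample tag with its Clopper-Pearson 95% interval. The 3 tags of cDC1 sit between 72.0% and 77.1%, above all other classes shown.

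Class pairs were compared within each tag as the log2 ratio of CPM. A gene is called when all 3 tags show a ratio of 2-fold or more one way, and only genes with a sum of 30 or more molecules were read. With no p-value, the share of all genes called the same way is the background.

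**Figure D3:**
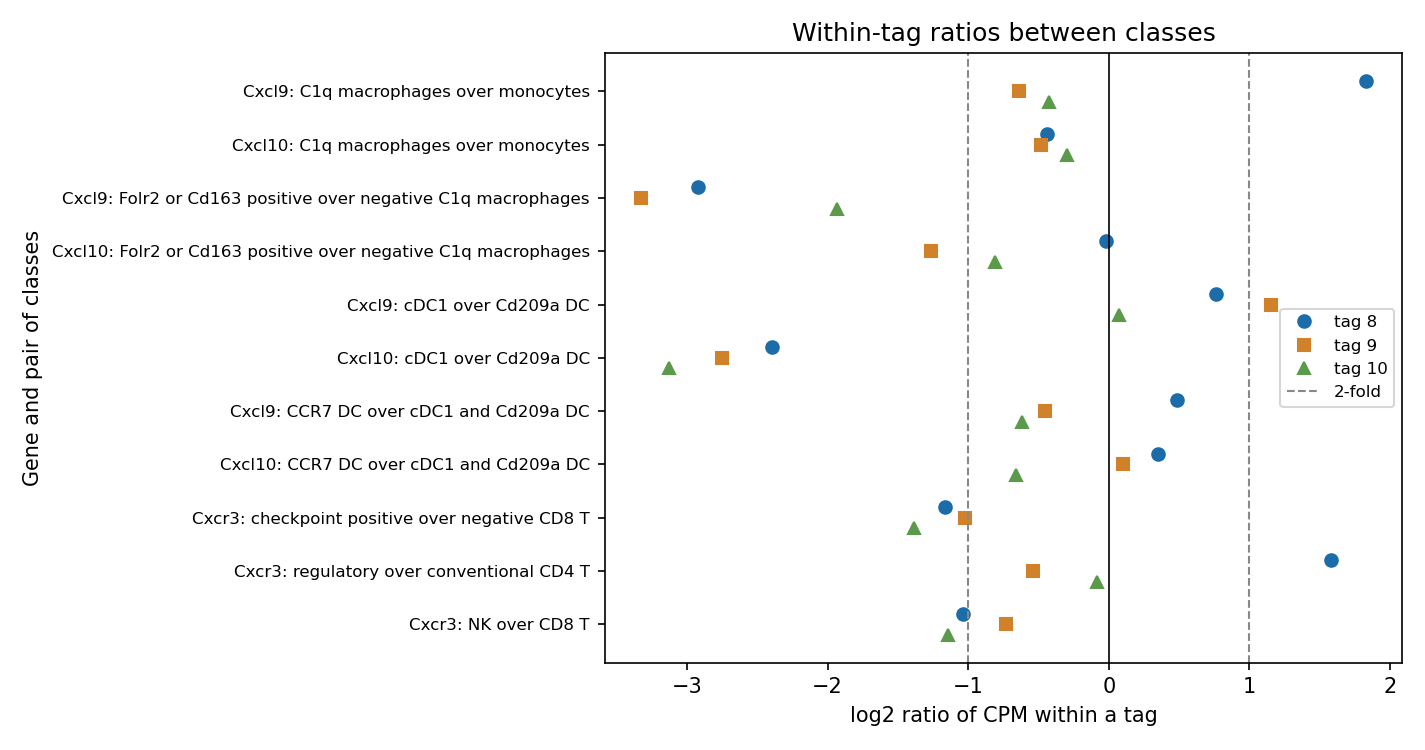
Log2 ratio of CPM between 2 classes within each sample tag, 1 point per tag, for the 11 gene and class pairs compared, with dashed lines at 2-fold. All 3 points lie past the left dashed line for Cxcl9 in Folr2 or Cd163 positive macrophages, Cxcl10 in cDC1 and Cxcr3 in checkpoint positive CD8 T cells.

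Neither ligand reached the call between C1q macrophages and monocytes. The log2 ratio of macrophages to monocytes was 1.83, -0.64 and -0.43 for Cxcl9, with tag 8 in the opposite direction to the others. For Cxcl10 it was -0.44, -0.49 and -0.30, below 2-fold but with the lower level in macrophages in all 3 tags. Of 10271 genes, 1.92% were called higher and 0.506% lower. No gene of the interferon gamma list or of the list of 12 type I interferon response genes was called. Their median log2 ratios were -0.28 and -0.30, against 0.11 over all genes. Of 14 tested genes of a list of the CXCR3 axis, which holds interferon gamma, its receptors and signal carriers and other chemokine genes, only Pf4 was called. Pf4, a platelet and macrophage chemokine that can also bind CXCR3, was higher in C1q macrophages, at 1306, 903 and 1678 CPM against 625, 282 and 313 CPM.

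Within C1q macrophages, Cxcl9 followed the Folr2 and Cd163 split and Cxcl10 did not pass the call. Folr2, a folate receptor, and Cd163, a haemoglobin scavenger receptor, mark macrophages of resident type. The 430 cells with a molecule of either gene had 25.7, 86.5 and 173 CPM of Cxcl9, and the 869 cells without Folr2, Cd163 or Cbr2 had 195, 869.2 and 662 CPM. All 3 tags showed the lower level in the positive cells, with log2 ratios of -2.92, -3.33 and -1.93, and the gene was called lower. For this pair 0.757% of 9648 genes were called lower and 0.871% higher. Positive cells were deeper, with medians of 11227, 9776.5 and 11719 molecules against 5122.5, 5022 and 5517. Positive cells held fewer Cxcl9 molecules per cell, at 0.308, 0.904 and 2.10 against 1.23, 5.25 and 4.44.

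Cxcl10 in the same split was 860.3, 703 and 682 CPM in positive cells and 874, 1693 and 1194 CPM in negative cells, with log2 ratios of -0.02, -1.27 and -0.81. Tag 8 showed almost no difference, and whether the ligands differ across this split was not tested. Of 12 interferon gamma response genes, Gbp2 and Ciita were called lower in positive cells. Gbp2, an interferon-induced GTPase, had 55.3, 180 and 122 CPM against 144, 660.3 and 344 CPM. Ciita, the master regulator of MHC class II genes, had 9.42, 18.4 and 16.2 CPM against 33.8, 48.0 and 42.6 CPM. The list's median log2 ratio was -0.84, that of the type I list -0.29 with no gene called, and that of all genes 0.03. On the CXCR3 axis list Ccl5, an inflammatory chemokine, was called lower at 116, 182 and 151 CPM against 309, 762 and 445 CPM. Pf4 was called higher, at 1992, 1827 and 2976 CPM against 657, 395 and 419 CPM. Ly6c2 and Chil3 summed to 499, 333 and 411 CPM in positive and 514, 1117 and 1388 CPM in negative cells, so the negative cells of tags 9 and 10 also held more monocyte marker molecules, whose part in the result was not tested.

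Between dendritic cell classes, Cxcl10 separated cDC1 from Cd209a cells. Its log2 ratio of cDC1 to Cd209a dendritic cells was -2.39, -2.75 and -3.13, from the levels given above, and it was called lower, as were 4.44% of 7208 genes. The groups did not overlap. Cxcl9 did not pass, with log2 ratios of 0.76, 1.15 and 0.07, where 4.09% of genes were called higher. Without the pigment-rich cell of cDC1, the ratios of tag 8 were -2.27 for Cxcl10 and 0.99 for Cxcl9, and neither gene changed its call. Then 4.5% of 7020 genes were called lower and 3.92% higher. Of 12 type I interferon response genes, Ifit2, Ifit3 and Rtp4 were called lower in cDC1, and the list's median log2 ratio was -1.04 against 0.07 over all genes. Ifit3, an antiviral protein, had 5.45, 2.09 and 9.17 CPM in cDC1 and 64.2, 78.8 and 30.01 CPM in Cd209a cells. No interferon gamma response gene was called, and that list's median was -0.58. On the CXCR3 axis list, Irf8, a transcription factor needed for cDC1, was called higher, and Ccl5, Tbx21 and Pf4 were among the genes called lower. Of the 15 genes tested there, 4 were called lower, and 3 without the pigment-rich cell. The counts of the interferon lists stayed the same without it.

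Neither ligand reached the call between the CCR7 gate and the other dendritic cells. Against cDC1 and Cd209a cells together, its log2 ratio was 0.49, -0.45 and -0.62 for Cxcl9 and 0.35, 0.10 and -0.66 for Cxcl10. Many genes differed here, with 14.2% of 10309 genes called higher and 4.79% lower. Melanoma markers in the gate summed to 5882, 5942 and 5913 CPM. Without the pigment-rich cells, the ratios were 0.94, 0.07 and -0.12 for Cxcl9 and 0.47, 0.62 and -0.16 for Cxcl10, and 11.1% of 9275 genes were called higher and 5.37% lower. Of 16 genes tested on the CXCR3 axis list only Ccl5 was called higher, at 2654, 2036 and 2275 CPM in the CCR7 gate against 82.0, 50.01 and 77.6 CPM. Tbx21 and Ifngr1 were among those called lower, as were Ciita and Zbp1 of the interferon lists. Without the pigment-rich cells Ccl5 stayed higher and Ifngr1 and Ciita stayed lower, while Tbx21 and Zbp1 were no longer called. Cxcl16, the ligand of CXCR6, and Gbp5 were then called higher, with Cxcl16 at 581, 536 and 574 CPM against 181, 243 and 182 CPM.

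The ligands also differed in how they were spread over cells of a class. In C1q macrophages pooled over the tags, the 10% of cells with most molecules held 92.8% of Cxcl9 and 64.0% of Cxcl10. In monocytes the same share held 96.3% of Cxcl9 and 63.7% of Cxcl10. The pooling mixes tag 8, low in Cxcl9, with the other tags. Taken within tags 8, 9 and 10, the Cxcl9 shares were 100%, 88.0% and 89.8% in macrophages and 100%, 83.1% and 97.6% in monocytes. Those of Cxcl10 were 64.2%, 67.3% and 60.8% in macrophages and 68.4%, 64.0% and 56.1% in monocytes. Cxcl9 was found in 317 of 1471 macrophages and Cxcl10 in 920, and in 146 and 568 of 845 monocytes. The highest single macrophage had 145 Cxcl9 molecules and the highest for Cxcl10 had 333. Cxcl9 also had fewer molecules than Cxcl10, 4442 against 12755 in macrophages and 2314 against 6886 in monocytes, and the part of this in the difference was not tested.

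**Figure D4:**
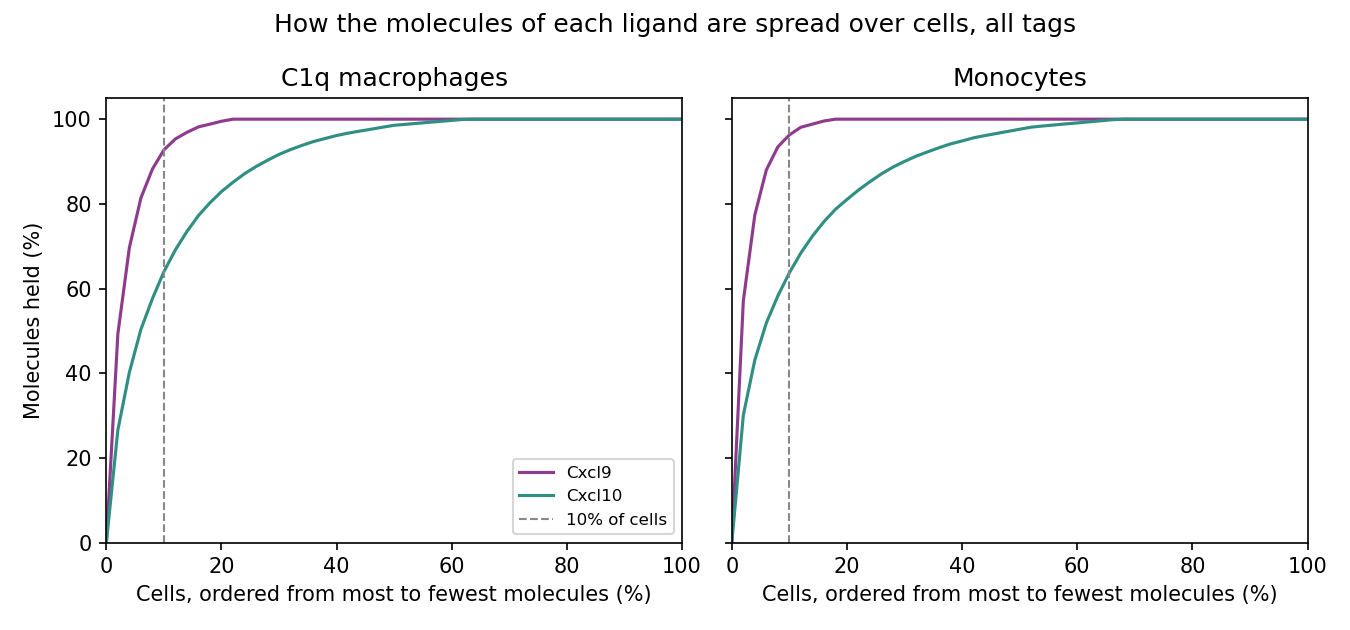
Share of all molecules of Cxcl9 or Cxcl10 (vertical axis, %) held by a growing share of the cells of a class, ordered from most to fewest molecules (horizontal axis, %), for C1q macrophages and monocytes over all tags. At 10% of cells the Cxcl9 lines stand at 92.8% and 96.3% and the Cxcl10 lines at 64.0% and 63.7%.

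Cells thinned to 1000 molecules showed which interferon genes were found beside each ligand. Among C1q macrophages with Cxcl9, 18, 89 and 79 cells of the tags, Cxcl10 was found in 33.3%, 46.1% and 45.6%, and among those without it in 33.2%, 38.2% and 33.5%. The shares hardly differed in tag 8. Gbp2 was found in a median of 40.5% of the cells with Cxcl9 (range over tags 38.9% to 59.6%) and of 10.7% of those without (5.31% to 17.1%). The Gbp2 ranges did not overlap, but the share of all genes without such overlap was not taken. The immunity GTPase Igtp was found in 12.7% (11.1% to 14.6%) against 3.85% (2.65% to 3.98%).

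In all, 8 of 12 interferon gamma response genes were found more often in C1q macrophages with Cxcl9 than in those without it in every tag, and 4 of 12 type I interferon response genes were. For all 1535 genes found in at least 10% of the cells this share was 17.5%. The same cells split by Cxcl10 gave 11 of 12 and 12 of 12, against 20.9% of all such genes. Rsad2, an antiviral enzyme, was found in a median of 30.1% of macrophages with Cxcl10 (26.7% to 34.5%) and of 15.1% of those without (10.98% to 20.0%), while with and without Cxcl9 it was found in 20.3% and 21.9%. Ifit1, an antiviral RNA-binding protein, was found in 17.3% and 6.94% with and without Cxcl10. With and without Cxcl9 the shares were 8.86% and 10.9%, and Ifit1 was the gene of the lists found less often in every tag. In macrophages without Folr2, Cd163 or Cbr2 the counts were 6 of 12 and 3 of 12 for Cxcl9, with 3 type I genes found less often in every tag. For Cxcl10 they were 5 of 12 and 7 of 12. The share over all genes was not taken in these cells, and only 14, 83 and 55 of them had Cxcl9. Their counts therefore cannot be read against those of all C1q macrophages. Whether the patterns of the ligands differ was not tested.

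**Figure D5:**
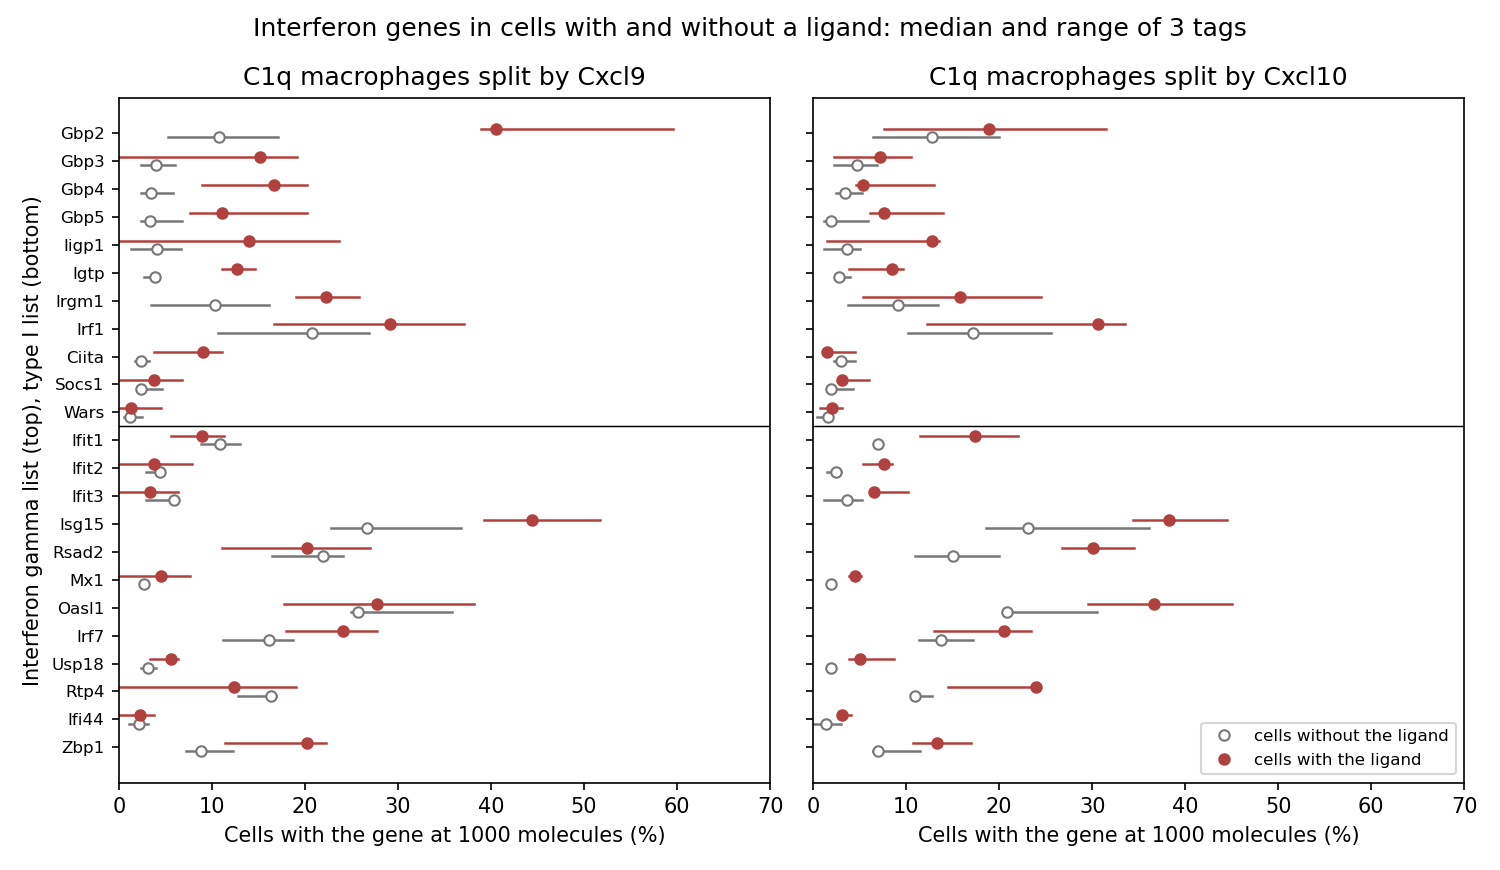
Share of C1q macrophages with a molecule of each gene (%, cells thinned to 1000 molecules) among cells with the ligand (filled) and without it (open), as the median and range of 3 sample tags, for Cxcl9 (left) and Cxcl10 (right). The upper genes are 11 of the interferon gamma list and the lower genes the 12 of the type I list, and Gbp2 stands at 40.5% against 10.7% on the left.

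Monocytes gave 8 of 12 interferon gamma genes and 5 of 12 type I genes for Cxcl9, against 14.7% of 1575 genes. For Cxcl10 they gave 4 of 12 and 5 of 12, against 14.2%. Here too only the 1575 genes, and not the list genes, were held to the 10% limit. Only 6 monocytes of tag 8 had Cxcl9 after thinning. Gbp2 was found in a median of 65.5% of monocytes with Cxcl9 (33.3% to 71.7%) and 17.1% without it (6.27% to 24.1%). In the CCR7 gate Cxcl10 was found more often in cells with Cxcl9 than in cells without it, in every tag. Of 8, 13 and 18 cells with Cxcl9, 62.5%, 61.5% and 44.4% also had Cxcl10, against 11.5%, 19.4% and 18.9% of cells without Cxcl9. Leaving out the pigment-rich cells changed only the latter, to 12.2%, 19.8% and 20.0%. These are few cells, and those of a tag share their source.

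Cxcr3 was a T cell transcript at a low level. Conventional CD4 T cells, the helper cells without Foxp3, had 65.8, 185 and 163 CPM. Tag 8 was the lowest there, with melanoma markers at 6361 CPM and 2 pigment-rich cells in the class, and stood at 102 CPM without them. Regulatory T cells, which hold Foxp3, had 197, 127 and 154 CPM, and tag 8 was their highest. Their ranges overlapped. A molecule of Cxcr3 was found in 46.5%, 49.3% and 39.3% of regulatory T cells and in 20.5%, 34.3% and 32.5% of conventional CD4 T cells, with median depths of 4132, 3772 and 4028.5 against 2938, 2938.5 and 2949 molecules. At 1000 molecules per cell the shares were 27.9%, 14.9% and 16.4% against 10.8%, 14.0% and 12.4%.

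The log2 ratio of regulatory to conventional CD4 T cells was 1.58, -0.54 and -0.09, and without the pigment-rich cells 0.96, -0.49 and -0.09. Cxcr3 was not called, where 1.55% of 7285 genes were called higher and 1.7% lower, and 2.78% of 6873 genes higher and 2.14% lower without those cells. Ifng, which encodes interferon gamma, was the only gene of 17 tested on the CXCR3 axis list that was called, lower in regulatory T cells at 11.6, 11.4 and 33.2 CPM against 95.01, 149 and 195 CPM. Of 11 interferon gamma response genes tested, Gbp5 was called higher, at 42.5, 72.8 and 69.4 CPM against 9.75, 30.4 and 29.0 CPM. Of 9 type I genes tested, Ifit3 was called lower, at 15.5, 22.8 and 15.1 CPM against 85.3, 66.4 and 100.1 CPM. Without the pigment-rich cells these 3 genes kept their calls, with 147 CPM of Ifng, 15.04 CPM of Gbp5 and 124 CPM of Ifit3 in conventional CD4 T cells of tag 8, and 1 more gene of the axis list was called higher.

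CD8 T cells had 58.6, 43.5 and 65.9 CPM of Cxcr3, below both CD4 classes in every tag, and their range did not overlap that of regulatory T cells. The split by checkpoint receptors stood near the call limit. The 375 cells with at least 2 molecules of Pdcd1, Lag3, Havcr2 and Tigit, receptors that restrain T cells, had 40.0, 33.8 and 49.97 CPM. The 214 cells with none of them had 89.4, 68.7 and 131 CPM. The log2 ratios were -1.16, -1.02 and -1.39, which passed the call as lower in all 3 tags, as 2.69% of 8536 genes did, while 3.26% were called higher. Per cell the classes hardly differed, with 0.362, 0.340 and 0.484 Cxcr3 molecules in checkpoint positive cells and 0.322, 0.304 and 0.488 in negative cells. Positive cells were deeper, with medians of 5361, 8003 and 7587 molecules against 3250.0, 3788 and 3358.5, so the lower level is one relative to all molecules of the class. The call was lost when cells were thinned to 1000 molecules, with a median log2 ratio of -0.68, and when CPM was averaged over cells, with -0.76.

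Other genes of the axis moved with the checkpoint split as well. Cxcr6, a receptor of tissue-resident and exhausted T cells, was called higher in positive cells at 299, 369 and 326 CPM against 42.3, 75.2 and 84.1 CPM. Irf8 was called higher too, at 409, 464 and 323 CPM against 9.41, 65.4 and 103 CPM. Irf1 and Ifngr2, a subunit of the interferon gamma receptor, were called lower, and Irf1 had 125, 96.9 and 95.9 CPM against 348, 340.2 and 271 CPM. Of 11 interferon gamma response genes tested, 4 were called lower, among them Iigp1 and Gbp2, and of 11 type I genes 5 were, among them Ifit3 and Rtp4. The medians of these lists were -1.39 and -1.86, against 0.10 over all genes.

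NK cells, which kill without prior activation and were gated on Ncr1, Klrb1c and Klre1, had 28.6, 26.2 and 29.8 CPM of Cxcr3. Every tag was lower than its CD8 T cells, with log2 ratios of -1.03, -0.73 and -1.14, and tag 9 kept the gene from the call. Here 2.77% of 9293 genes were called lower and 3.06% higher. Thinned to 1000 molecules per cell the median ratio was -1.96, and Cxcr3 was then called. That call rests on only 1, 3 and 4 NK cells with a Cxcr3 molecule in tags 8, 9 and 10. On the axis list Cxcr6 and Dpp4, a protease that trims CXCR3 ligands, were called lower in NK cells, and Irf8 and Eomes were called higher. Cxcr6 had 2.20, 17.9 and 5.68 CPM in NK cells against 223, 298 and 274 CPM in CD8 T cells. Ifng was 183, 189 and 186 CPM in NK cells and 507, 208 and 282 CPM in CD8 T cells, against 14 molecules in all 1471 C1q macrophages.

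Gamma-delta T cells had 37.1, 31.8 and 65.9 CPM of Cxcr3. Outside lymphocytes, cDC1 and pDC held the receptor transcript. cDC1 had 29.1, 14.7 and 29.8 CPM, from 36 molecules in 22 of 121 cells, with median depths of 14752 molecules in these cells and 10992 in the others. Tag 8 had 34.1 CPM without its pigment-rich cell. The gate allowed at most 1 molecule of the T cell markers Cd3e, Cd3d, Cd3g, Trac, Trbc1 and Trbc2, and 20 of the 22 cells with Cxcr3 and 85 of the 99 without it had none. Cd209a dendritic cells had 1 Cxcr3 molecule in 175 cells, with median depths of 5826.5 to 6695 molecules against 11043 to 13292.5 in cDC1. At 1000 molecules per cell Cxcr3 was found in 2.13%, 0% and 0% of cDC1, a depth too low to detect levels of this size in so few cells. pDC had 20.4, 23.5 and 29.8 CPM, from 13 molecules in 11 of 101 cells. Of the pDC, 9 of the 11 with Cxcr3 and 80 of the 90 without it had no T cell marker molecule.

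C1q macrophages, monocytes and neutrophils had 0 to 5.91 CPM of Cxcr3 and B cells 0 to 8.71 CPM. In C1q macrophages 16 of 1471 cells had a molecule, at median depths of 6213 to 7692. No molecule was found in 180 Arg1 macrophages or 82 eosinophils. The eosinophils were shallow, with median depths of 1183.5, 1387 and 1349.5 molecules. Their intervals reach 190, 66.5 and 82.5 CPM, above the level of CD8 T cells in each tag, so little can be read from their lack of Cxcr3. All 7 molecules of the CCR7 gate came from pigment-rich cells, and none was left in the other 376 cells. In the order of medians, the ranges of regulatory T cells and CD8 T cells, of gamma-delta T cells and cDC1, and of pDC and B cells did not overlap between neighbours, and all other neighbours overlapped.

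Genes with the most similar pattern over the 15 classes were found by Pearson's r of log2(median CPM + 10), over 10872 genes with at least 100 molecules. For Cxcl9 these were Tmem51 (r = 0.953), Gamt, Pacsin2, Slamf8 and Cd83 (r = 0.911). Cd83, a marker of activated antigen-presenting cells, had a median of 580 CPM in cDC1 and 37.0 CPM in CD8 T cells. For Cxcl10 they were Ifih1 (r = 0.930), C1rl, Sgk1, AC117662.4 and Xaf1 (r = 0.892). Ifih1 encodes the viral RNA sensor MDA5 and had 155 CPM in monocytes, 32.7 CPM in cDC1 and 5.96 CPM in pDC. For Cxcr3 they were Ctla4 (r = 0.930), Ndfip1, Dkkl1, Cdipt and Icos (r = 0.907). Ctla4 and Icos are an inhibitory and a costimulatory receptor of T cells, and Icos had 2050 CPM in conventional CD4 T cells and 1877 CPM in regulatory T cells. The r of Cxcl9 with Cxcl10 was 0.765. Gamt, C1rl and AC117662.4 had medians of at most 10.1, 10.6 and 9.34 CPM in any class. That is close to the 10 CPM added before the log, so their r rests on levels near the floor. The classes share 1 library and differ in depth, and all r values describe the 15 classes only.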

How the data were processed

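One single-cell whole transcriptome library with its sample tag library was used. The deposited table holds molecule counts, one number for each cell and gene after recursive substitution error correction. Per the file headers it comes from version 1.9.1 of BD's Rhapsody pipeline for multiplexed whole transcriptomes, run on GRCm38 and GENCODE vM19. GRCm39 stands in the submitters' processing notes, but the header was followed. The deposited tag call of each cell was used as given. The deposited counts are whole numbers whose totals differ between cells, and they were used without any earlier normalization being assumed.

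The filter on cells was a single tag, 200 genes or more and mitochondrial molecules of 25% or less. The 1448 multiplet and 361 undetermined tag calls were left out. No doublet caller was run, and the limit on competing markers in each gate was the only further step. Classes, levels and ratios were computed with Python 3.11.15, numpy 2.4.6, scipy 1.17.1 and pandas 2.3.3. A count of 0 was set to 3 counts in a ratio. Thinning used seed 1. The genes, gates and lists were chosen with earlier results of these data known. Named were the 3 genes, at most 4 genes of each list and pair of classes with the greatest absolute median ratio, further called genes of a list by name, and 5 genes of similar pattern. Igtp, Rsad2, Ifit1 and Gbp2 in the co-detection, and Ifng in NK and CD8 T cells were picked as examples after their values were seen. Alternatives used TMM factors (edgeR 4.0.16, R 4.3.3), other totals, filters, gates and weights of cells, and left out single cells or tags. One more, without cells of 10 or more melanoma marker molecules, was chosen after seeing the data. Coordinates come from GENCODE vM21 on GRCm38, and promoter sequences from RefSeq (GRCm38.p6), where all 3 genes were matched. Protein sequences were not used here, and values of some list genes are not reported here.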

Additional observations from a re-analysis of the deposited data

Results flagged for a closer look

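Cells without a single tag were in no comparison, and they held molecules of all 3 genes above the limit that a count of 0 allows. In 175 filtered cells with an undetermined tag, Cxcl9 was 12.1 CPM, Cxcl10 was 94.99 CPM and Cxcr3 was 4.79 CPM, from 48, 377 and 19 molecules. In 1271 filtered cells with a multiplet tag, Cxcl9 was 288 CPM, Cxcl10 was 641 CPM and Cxcr3 was 21.3 CPM, from 2978, 6641 and 221 molecules. A count of 0 would have allowed up to 0.756 CPM and 0.290 CPM. These cells hold mixed or unknown tags, and no class was gated in them.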

How the results depend on the processing

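Over 14 results and 196 alternatives, 182 kept their call, or for results without a call moved by less than the spread between tags. Some uncalled medians changed sign within that spread. They ran from -0.53 to 0.70 for Cxcl9 in C1q macrophages over monocytes and from -0.31 to 0.75 for Cxcr3 in regulatory over conventional CD4 T cells. For the CCR7 gate over other dendritic cells they ran from -0.67 to 0.07 for Cxcl9 and from -0.41 to 0.47 for Cxcl10. Cxcl9 in Folr2 or Cd163 positive over negative C1q macrophages was called lower under all 14 alternatives, with medians of -3.12 to -1.92, and Cxcl10 in cDC1 over Cd209a cells under all 14, with -3.05 to -2.21. Cxcr3 in checkpoint positive over negative CD8 T cells lost its call in thinned cells (-0.68), with competing markers at 0 (-1.03), with CPM averaged over cells (-0.76) and without the cell with most molecules (-1.09). Cxcr3 in NK over CD8 T cells gained a call in thinned cells (-1.96), with competing markers at 0 (-1.20), with averaged CPM (-1.57) and without tag 9. Only 1, 3 and 4 thinned NK cells of the tags held Cxcr3. Leaving out 1 tag gave -1.09 to -0.88. Cxcl10 in C1q macrophages over monocytes moved to -0.83 with competing markers at 0, -0.30 with at most 3, -0.27 with averaged CPM and -0.30 without the top cell, uncalled in each. Cxcl9 in cDC1 over Cd209a cells moved to 2.96 with competing markers at 0 and 1.37 without the top cell, also uncalled. The causes were not tested. Median levels ran from 304 to 731 CPM for Cxcl9 in monocytes, 1080.2 to 1635 CPM for Cxcl10 in monocytes and 115 to 196 CPM for Cxcr3 in conventional CD4 T cells. Depth limits Cxcr3, with 1186 molecules in all. Every ratio was taken within a tag. The labels give no replicate numbers that groups share, so no replicate block was fitted.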
